A study of Mus musculus with 29 samples.

Results

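Chromatin regions shared by OFF bipolar cells and cones were defined by peak calls in ATAC-seq, an assay in which a transposase inserts adapters into accessible DNA. A region was taken when its midpoint lay in a deposited peak of both replicates of OFF bipolar cells (OFF-BC), blue cones and single-sorted green cones, and in no peak of either replicate of ON bipolar cells (ON-BC) or rods. Of the 110715 regions in the deposited accessibility table, 645 met this rule. The members were thus chosen by the accessibility of these 5 populations, and their levels there are given as a description.

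All cells were sorted from adult mouse retina. Bipolar cells for ATAC-seq came from Otx2-GFP+/-; Grm6-YFP+/+ mice aged 42 to 46 postnatal days, in which the Otx2 locus drives GFP in bipolar cells and the Grm6 promoter drives YFP in ON-BC only. OFF-BC were sorted in 2 rounds, and pan bipolar cells (pan-BC), which hold both classes, and ON-BC in 1. The paper describes weak GFP in photoreceptors as well. It gives the repeat sort as a step to raise OFF-BC purity from these neighbouring, weakly fluorescent cells. For RNA-seq the ages ran from 42 to 48 days and pan-BC came from Otx2-GFP+/- mice, without the YFP transgene. Photoreceptors were aged 56 days and were re-analysed from an earlier study. Rods were sorted from Nrl-eGFP mice, green cones from Opn1mw-GFP mice, and blue cones were photoreceptors of Nrl-eGFP;NrlKO mice, which lack the rod factor NRL, so they stand in for S cones and carry a deletion that the other groups do not. Each ATAC-seq group held 2 libraries with counts, with peaks alone for 2 further, double-sorted green cone libraries, and each RNA-seq group held 3 libraries. No RNA-seq of green cones was analysed here. Class, study and age change together between bipolar and photoreceptor libraries and cannot be told apart.

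Cones contact cone bipolar cells of both kinds. OFF bipolar cells receive cone glutamate through ionotropic receptors and keep its sign, whereas ON bipolar cells invert it through the metabotropic receptor encoded by Grm6. The sorted ON-BC also hold rod bipolar cells, which the paper estimates to be the larger part of them. OFF-BC against ON-BC is thus not a contrast of cone bipolar cells alone. The paper also reports that a rare ON type was likely left out of both sorts. Photoreceptors and bipolar cells both depend on homeodomain factors of the K50 type, OTX2 and CRX, which favour TAATCC, whereas Q50 homeodomain proteins, such as LHX factors, favour TAATTA and TAATTG. An accessible region away from a promoter is a candidate regulatory element, and openness alone does not show activity or name its target gene.

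Each region spans 201 bp, that is, 100 bp to either side of its midpoint. The 8 sequences that follow are from members high in all 3 open populations and from members beside genes whose RNA differed in both classes. They are the plus strand of GRCm38 (mm10), 5′ to 3′, and capitals mark, on either strand, the K50 letters TAATCC, the Q50 letters TAATTA and TAATTG and the E-box CAGATG, a site of proneural bHLH factors. Slit3 and Lyplal1 lead the members when these are ranked by the lowest of the 3 open population means.
Slit3, chr11:35318257-35318457, intron: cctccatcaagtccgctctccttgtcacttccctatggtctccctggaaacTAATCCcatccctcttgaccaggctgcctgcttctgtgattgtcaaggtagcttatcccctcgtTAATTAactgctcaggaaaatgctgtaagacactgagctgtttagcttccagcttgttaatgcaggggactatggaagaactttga
Lyplal1, chr1:185898579-185898779, intergenic: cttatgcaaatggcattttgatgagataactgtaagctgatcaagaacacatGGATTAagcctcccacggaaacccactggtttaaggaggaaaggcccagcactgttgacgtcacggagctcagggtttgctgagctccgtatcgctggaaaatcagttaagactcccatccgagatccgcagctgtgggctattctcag
Eya1, chr1:14257609-14257809, intron: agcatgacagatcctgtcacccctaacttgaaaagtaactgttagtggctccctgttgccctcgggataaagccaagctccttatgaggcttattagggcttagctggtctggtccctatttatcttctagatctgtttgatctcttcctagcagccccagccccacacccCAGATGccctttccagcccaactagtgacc
Opn1sw, chr6:29380472-29380672, promoter: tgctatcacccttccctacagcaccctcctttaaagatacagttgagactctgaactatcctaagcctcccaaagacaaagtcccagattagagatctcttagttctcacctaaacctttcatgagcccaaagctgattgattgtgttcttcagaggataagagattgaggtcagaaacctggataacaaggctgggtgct
A930009A15Rik, chr10:115577153-115577353, intron, also within Lgr5: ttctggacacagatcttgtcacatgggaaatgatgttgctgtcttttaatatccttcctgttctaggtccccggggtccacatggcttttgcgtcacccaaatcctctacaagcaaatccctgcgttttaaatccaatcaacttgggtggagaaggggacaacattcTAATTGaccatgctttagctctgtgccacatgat
Slitrk6, chr14:110012311-110012511, intergenic: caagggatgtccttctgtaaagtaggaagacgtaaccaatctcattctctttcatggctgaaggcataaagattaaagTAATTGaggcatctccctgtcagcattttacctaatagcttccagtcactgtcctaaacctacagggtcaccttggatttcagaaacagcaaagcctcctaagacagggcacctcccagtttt
Cdh13, chr8:118507521-118507721, intron: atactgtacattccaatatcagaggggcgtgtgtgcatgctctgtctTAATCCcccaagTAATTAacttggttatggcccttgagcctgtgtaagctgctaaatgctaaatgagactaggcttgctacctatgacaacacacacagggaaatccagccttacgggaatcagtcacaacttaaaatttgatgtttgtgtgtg
Mef2c, chr13:83604411-83604611, intron: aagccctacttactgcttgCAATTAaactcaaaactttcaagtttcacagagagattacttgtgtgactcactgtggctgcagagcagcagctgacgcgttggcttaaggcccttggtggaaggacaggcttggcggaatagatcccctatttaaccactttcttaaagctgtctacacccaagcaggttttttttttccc
The Slit3 and Cdh13 regions each hold 1 TAATCC and 1 TAATTA, the Slitrk6 region and the region within Lgr5 each hold 1 TAATTG, and the Opn1sw promoter holds none of the marked letters.

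Most members lay far from gene starts. Of the 645, 314 were intronic, 294 intergenic, 25 in promoters (1000 bp before to 100 bp after a RefSeq transcript start), 4 in coding exons, 4 in 3′ UTRs, 2 in 5′ UTRs and 2 in noncoding exons. Promoters made up 3.88% of members against 14.9% of all regions. The median distance to the nearest start was 50885 bp, against 20505 bp over all regions, 16903 bp over the 1994 regions open in OFF-BC, both cone types and rods but not ON-BC, 25729 bp over the 655 open in both cone types only, and 45060 bp over the 1672 open in OFF-BC only. The cone-only set, unlike the others, also required no peak in pan-BC. Members thus lay about as far out as the OFF-BC regions and farther than the cone regions, as a description of these sets. Members over 100 kb from a start made up 30.9%, against 17.1% of all regions. Their median GC content was 47.8%, against 50.2%, and the midpoint lay in a repeat in 4.34%, against 8.43%. No member overlapped another, and 23 lay within 10 kb of the next. Members were spread over 542 nearest genes, of which 462 had 1 member, 62 had 2 and 18 had 3 or more, led by Zfp608 with 6 and Cdh13 with 5. Chromosome 1 held 66 members, 0.845% of its regions, and chromosome X held 4, 0.159% of its regions.

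Before the values, the sorted populations were compared with their markers. The summed RNA of 10 cone markers, in normalized counts, was 11803 to 11881 in ON-BC against 32142, 37073 and 108514 in OFF-BC, whereas rods had 11083 to 11180 and blue cones 1534520 to 1759980. OFF-BC replicate 3 stood apart, and its excess was mostly Opn1sw. Pan-BC had 52611 to 78657, above all ON-BC libraries and above OFF-BC apart from replicate 3. Rod markers (11 genes) summed to 10964 to 31919 in OFF-BC, 30188 to 36988 in ON-BC and at least 1992960 in every rod library, and no cone or rod marker was at 0 in all libraries of a population. OFF bipolar markers (11 genes) summed to 48751 to 70388 in OFF-BC and 3606 to 4364 in ON-BC. ON bipolar markers (13 genes) summed to 32208 to 49353 and 273039 to 283470, so the sums went with the labels. Grik1, at a mean of 38804, was the largest part of the OFF sum in OFF-BC. Single genes did not all go with their list. The OFF marker Vsx1 had a mean of 287 in OFF-BC and 975 in ON-BC, and the cone marker Kcne2 had 747 and 5728. In the RNA test below, 6 OFF markers were higher and 0 lower in OFF-BC, and 9 ON markers lower and 0 higher. Over all genes tested, 3.6% were higher and 2.95% lower. Sums in OFF-BC against ON-BC were 7928 to 12503 against 6293 to 7527 for Muller glia markers (6 genes), 920 to 1098 against 327 to 479 for amacrine markers (6 genes), 34.6 to 88.9 against 83.6 to 119 for horizontal markers (4 genes) and 46.9 to 83.9 against 102 to 171 for ganglion markers (4 genes, with Slc17a6 at 0 in OFF-BC). Clu, at a mean of 7941 in OFF-BC and 5380 in ON-BC, was the largest part of the Muller glia sum. Of that list, Glul and Slc1a3 were also higher in OFF-BC by mean, and Rlbp1, Apoe and Aqp4 lower. Slc6a9, at 566 and 159, was the largest part of the amacrine sum and had 2271 in rods. Gad1 alone of the amacrine list was lower in OFF-BC. Fewer cells of a type and less RNA per cell cannot be told apart in such bulk libraries. In ATAC-seq the median normalized count at 9 cone marker promoters was 56.6 and 51.6 in OFF-BC, 11.9 and 8.78 in ON-BC, 212 and 221 in blue cones, and green cones had 118 and 124. Among these promoters, those of Opn1sw, Gnat2 and Cnga3 are members. The rule required a peak there in OFF-BC and cones and none in ON-BC and rods, so these medians are partly set by it. At 11 rod marker promoters it was 16.2 and 19.5 in OFF-BC, against 17.9 and 14.6 in ON-BC, and rods had 501 and 482. The part of cone material in the OFF-BC libraries in the results was not tested.

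The 645 regions had median accessibility of the same order in OFF-BC and cones. The median normalized ATAC-seq count over members was 45.8 and 38.0 in the OFF-BC libraries, 62.2 and 65.0 in blue cones, and green cones had 56.9 and 63.4. It was 7.47 and 5.86 in ON-BC and 3.89 and 4.07 in rods. These are the values the rule used, and they separate as the rule requires. Both OFF-BC libraries lay above both ON-BC libraries at 628 members, all 4 cone libraries above both rod libraries at 644, and all 6 open libraries above all 4 closed ones at 611. The median ratio of population means was 5.40 for OFF-BC over ON-BC and 13.3 for cones over rods.

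**Figure D1:**
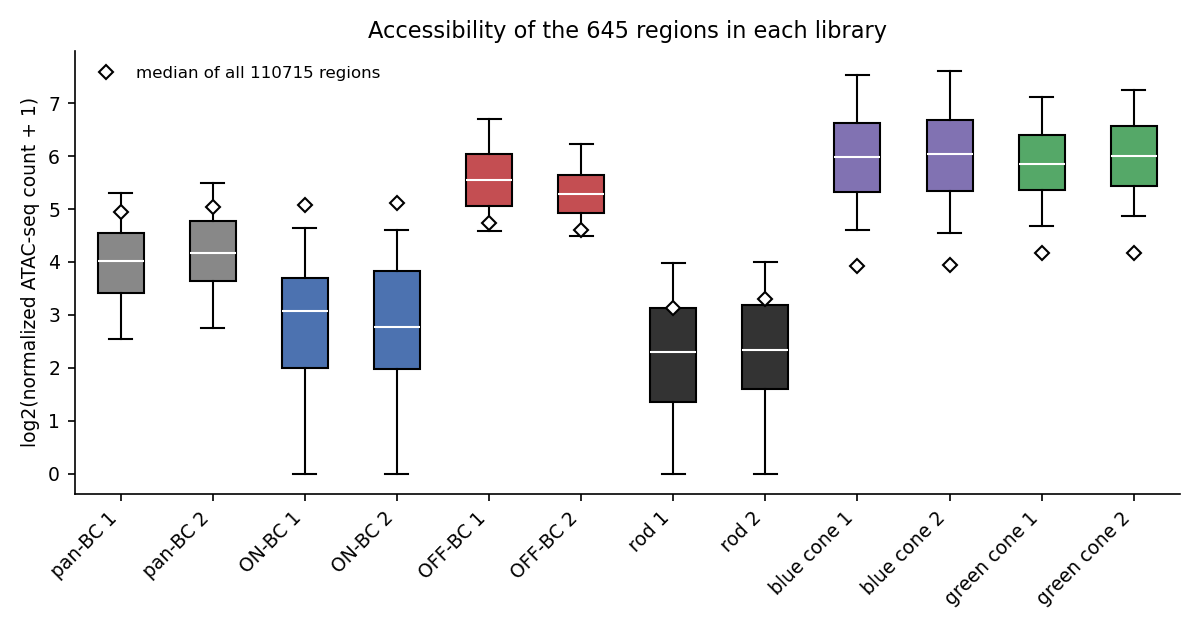
Distribution of log2(normalized ATAC-seq count + 1) of the 645 regions in each of the 12 libraries with counts; boxes span the quartiles of the members, whiskers their 5th to 95th percentiles, and diamonds mark the median of all 110715 regions. The 6 OFF-BC and cone libraries sit high, the ON-BC and rod libraries low, and the pan-BC libraries between them.

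Ranked by the lowest of the 3 open population means, the first member was an intronic region of Slit3, which encodes a secreted guidance ligand, 196901 bp from its start. Its normalized count was 174 and 121 in OFF-BC, 312 and 255 in blue cones, and green cones had 155 and 183, against 0 and 4.39 in ON-BC and 11.7 and 10.8 in rods. The open and closed libraries did not overlap. A region 218631 bp from the start of Lyplal1 had 156 and 98.3 in OFF-BC, 203 and 200 in blue cones, and green cones had 158 and 208, with 11.9 and 22.0 in ON-BC and 4.67 and 1.36 in rods. The Eya1 intron had 121 and 109 in OFF-BC, 164 and 141 in blue cones, and green cones had 135 and 108, while no ON-BC or rod library exceeded 5.97. In both, every open library lay well above every closed one. Eya1 encodes a transcriptional coactivator with phosphatase activity. The Opn1sw promoter region, 59 bp upstream of the start of the S-opsin gene, had 112 and 106 in OFF-BC, 242 and 221 in blue cones, and green cones had 121 and 100. In ON-BC it had 11.9 and 2.93 and in rods 10.9 and 6.10, so OFF-BC overlapped green cones and lay below blue cones. The other 8 of the first 12 members in this ranking lay nearest Atp13a5, Gm11426, Man2a2, Arhgap44, Nptn, Rab27b, Slc24a2 and Tex36. The region beside Nptn, the gene of the adhesion protein neuroplastin, showed how the rule can be met without low counts. OFF-BC had 119 and 104, rods had 104 and 80.0 and ON-BC had 46.3 and 64.4, although no peak was called there in rods or ON-BC. Rods and OFF-BC overlapped at this member.

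**Figure D2:**
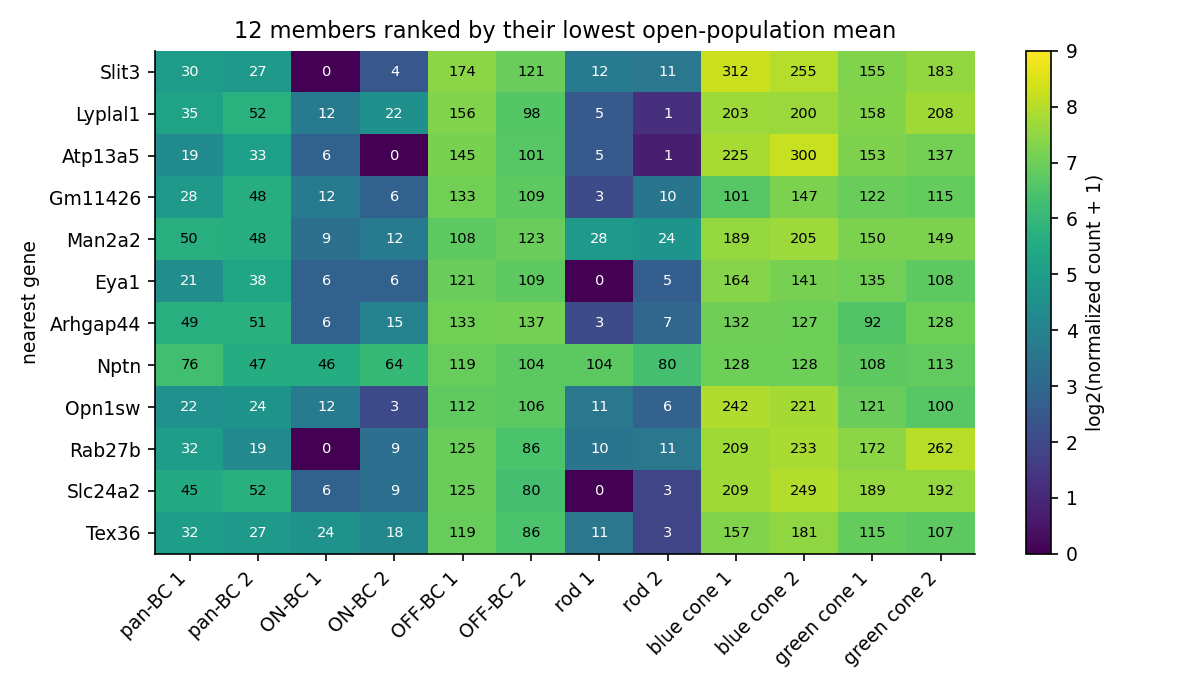
Heat map of log2(normalized ATAC-seq count + 1) for the 12 members ranked first by the lowest of their 3 open population means (rows, by nearest gene) in the 12 libraries with counts (columns). Every row but that of Nptn is low in the ON-BC and rod columns.

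At the threshold of the rule, the weakest peak of a member had a −log10 q value, as the peak caller gave it, of 1.38 at the lowest (nearest Pakap, Gm5523 and Reg3b), and the median over members of the weakest peak was 7.08. Just outside, 619 regions missed a peak in 1 open library only, in OFF-BC replicates 1 and 2 for 152 and 231, in blue cone replicates 1 and 2 for 86 and 8, and in green cone replicates 1 and 2 for 13 and 129. A further 421 had 1 closed library with a peak, for 117 and 115 in ON-BC and for 52 and 137 in rods. The first group had median counts of 26.5 in OFF-BC, 38.2 in blue cones, and green cones had 38.5, each below the median of the members. The second had 19.3 in ON-BC and 10.4 in rods, each above it.

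Libraries that the rule did not use gave a further view of the members. In pan-BC, which also hold the ON-BC in which the rule required no peak, peaks were found at 28.7% and 57.5% of members in the respective replicates, against 60.3% and 69.1% of all regions. No pan-BC peak was found at 252 members (39.1%), 1 at 230 and 2 at 163 (25.3%), and among the 1672 OFF-BC-only regions the first and last shares were 29.1% and 28.1%. The pan-BC mean lay between the ON-BC and OFF-BC means at 589 members (91.3%), where the rule itself sets these means apart, so nothing is read from this share. At the median member it lay 23.6% of the way from ON-BC to OFF-BC, and at the median OFF-BC-only region 24.4%. Members with 0, 1 and 2 pan-BC peaks had median OFF-BC counts of 35.9, 44.1 and 53.1. In double-sorted green cones, peaks covered 92.1% and 82.0% of members in replicates 3 and 4, against 40.0% and 27.4% of all regions and 84.1% and 72.3% of regions open in single-sorted green cones. Both double-sorted libraries had a peak at 502 members (77.8%) and neither at 24. These libraries come from the same populations as those the rule used, so they repeat the measurement rather than add a new one.

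The rule required peaks in both OFF-BC and cones but set no order between them, and this difference was fitted across the 108448 regions that passed a low-count filter. Each class was modelled on log2(normalized count + 1) with limma, and a region was called where its change exceeded 1 on the log2 scale at an adjusted p under 0.05. Of the 645 members, 1 was more accessible in OFF-BC than in the mean of both cone types (16.7% of all regions were called in this direction) and 15 were less accessible (3.87% of all regions). At an unadjusted p under 0.05 the counts were 1 and 34. Needing a peak in every one of these libraries limits such calls beforehand, so nothing about the members is read from these counts or their background, and the values that follow are a description. At the median member OFF-BC minus cones came to −0.52 (log2), and the difference lay above 0 at 21.4% of members. Both OFF-BC libraries lay above all 4 cone libraries at 38 members and below them at 274.

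The 1 member called higher in OFF-BC was in an intron of Efhd1, a calcium-binding mitochondrial protein gene. It had normalized counts of 108 and 95.4 in OFF-BC, 20.7 and 18.1 in blue cones, and green cones had 18.4 and 26.8, a log2 difference of 2.24. OFF-BC did not overlap the cones, yet the call was lost without either OFF-BC library, which leaves 0 members called. The lowest in OFF-BC lay 137953 bp from the start of Diras2, a small GTPase gene, with 37.7 and 32.1 in OFF-BC, 272 and 295 in blue cones, and green cones had 231 and 334 (log2 difference −2.97). A region near Tapt1 had 24.2 and 26.3 in OFF-BC, 115 and 124 in blue cones, and green cones had 177 and 266 (−2.63), and a region near Ipo11-lrrc70 had 48.5 and 29.2, 328 and 307, and 124 and 149 (−2.43). At all 3 the cone libraries lay above both OFF-BC libraries. The other 12 ran down in size to −1.82, and 1 of them lies in the Cdh13 intron. The count of 15 fell to 5 without OFF-BC replicate 2, to 8 without green cone replicate 2 and to 9 without either blue cone library, and edgeR on the recovered reads gave 83. Between blue and green cones no member was called by limma in either direction (0.0277% and 0.0627% of all regions were called), and these counts are limited by the rule in the same way. At an unadjusted p under 0.05 there were 4 and 3, edgeR called 3 and 3, and DESeq2 called 0 and 0. The median difference was 0.10.

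RNA was not used by the rule. Of the 542 nearest genes, 471 were found in the RNA-seq table (18 through an older name), and 319 passed the low-count filter and were tested among 14024 genes. A gene that passed the filter only through a population in which it was high had to differ there, so shares among the 319 are a description. In OFF-BC against ON-BC, 31 nearest genes were higher (9.72%, against 3.6% of all genes tested) and 21 lower (6.58%, against 2.95%). In blue cones against rods, 130 were higher (40.8%, against 11.3%) and 7 lower (2.19%, against 4.63%). The median log2 difference was 0.16 between OFF-BC and ON-BC and 0.92 between blue cones and rods, against 0.02 and 0.00 over all genes tested. With genes at 0 in all libraries of a population set to their bound against 3 reads per library, the members' medians were 0.16 and 0.91. The separate sources of the replicates, such as different mice, are not stated in the labels, so p-values measure the spread between these samples.

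Shares differed between kinds of region. Genes nearest to regions open in OFF-BC, both cone types and rods were higher in blue cones than rods in 14.5% and in OFF-BC than ON-BC in 6.00%. Beside regions open in cones only the shares were 32.1% and 4.92%, and beside OFF-BC-only regions 15.6% and 11.8%. Members thus had the highest share in the cone comparison of these 4 sets and the second highest in the bipolar comparison, with no test of either order. Shares also ran with distance. Among the 75 genes with a member within 10 kb of their start, 64.0% were higher in blue cones and 13.3% in OFF-BC. Among 170 genes whose nearest member lay 10 to 100 kb away the shares were 34.1% and 9.41%, and among 74 beyond 100 kb they were 32.4% and 6.76%. Genes with 1 member were higher in blue cones in 37.4% and genes with 2 or more in 59.2%.

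**Figure D3:**
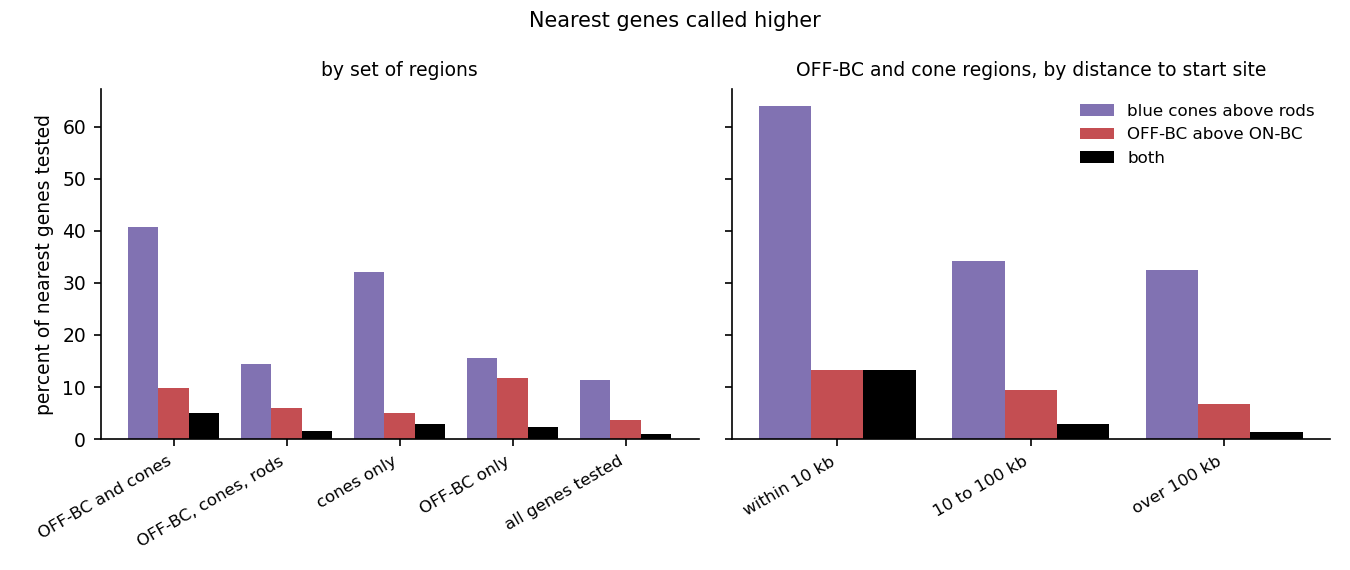
Percent of tested nearest genes called higher in OFF-BC than ON-BC, in blue cones than rods and in both (bars), by kind of region and, for the members, by distance from the gene start. The 75 genes within 10 kb of a member had the highest share in the blue cone comparison, 64.0%.

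Higher RNA in both comparisons was found for 16 nearest genes (5.02%, against 1.03% of all genes tested), which lie next to 22 members. The comparisons share no library. A share called in both rises with the shares called in each, here 9.72% and 40.8%, against 3.6% and 11.3% of all genes tested. No link between the comparisons is therefore read from it. In the other sets the share was 1.50%, 2.85% and 2.27% for regions open in OFF-BC, cones and rods, in cones only and in OFF-BC only. The genes were A930009A15Rik, Ackr1, Angpt1, Atp10b, Cdh13, Clnk, Cngb3, Dusp23, Gnat2, Gsg1, Lgr5, Opn1sw, Rnf180, Sall3, Shisa6 and Slitrk6. A single gene, Mef2c, was lower in both (0.313%, against 0.25%), 8 were lower in OFF-BC and higher in blue cones (2.51%, against 0.578%) and 0 were higher in OFF-BC and lower in blue cones (0.171% of all genes by the limma calls). Without OFF-BC replicate 3, 29 genes were higher in OFF-BC and 13 in both, as Ackr1, Clnk and Dusp23 lost their OFF-BC call.

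**Figure D4:**
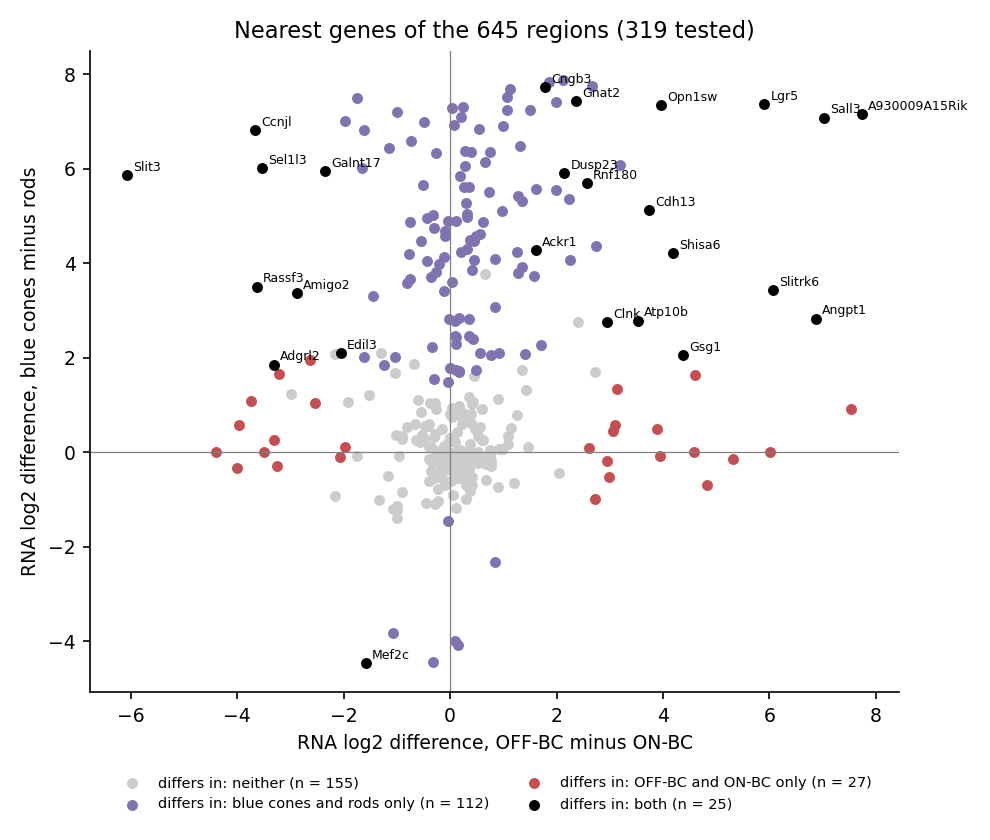
RNA log2 difference of OFF-BC minus ON-BC (x axis) against blue cones minus rods (y axis) for the 319 tested nearest genes, 1 point per gene, coloured by the comparison in which limma called it. The 16 genes higher in both lie at the upper right, and Mef2c alone is lower in both.

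Among the regulators, Sall3, a zinc finger transcription factor, was low in ON-BC and rods. Its normalized RNA count was 6.19, 8.82 and 9.23 in ON-BC against 1181, 1205 and 1115 in OFF-BC, whereas rods had 17.5, 6.15 and 7.57 and blue cones 1618, 1372 and 1267. The groups did not overlap in either comparison, with log2 differences of 7.02 (SE 0.30, limma adjusted p = 5.45e-10) and 7.08 (SE 0.30, adjusted p = 3.14e-11). Its member, 5710 bp from the start, had ATAC-seq counts of 67.4 and 42.8 in OFF-BC, 97.1 and 92.5 in blue cones, and green cones had 133 and 148, while no ON-BC or rod library exceeded 8.96. Mef2c, a MADS-box transcription factor, went the other way in both comparisons. It had 1043, 1286 and 1090 in ON-BC against 420, 360 and 358 in OFF-BC, whereas rods had 12755, 14706 and 13219 and blue cones 675, 588 and 572. OFF-BC and blue cones were the low populations of each pair (log2 differences −1.58 and −4.47), although both Mef2c members were called open in them. The member 3297 bp from its start had 76.8 and 42.8 in OFF-BC and 8.96 and 2.93 in ON-BC, and the member at 30904 bp had 31.0 and 23.4 in OFF-BC and 20.9 and 23.4 in ON-BC, where the classes touched.

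The transcription factor list held 50 tested genes, of which 6 were higher and 10 lower in OFF-BC than ON-BC (3.6% and 2.95% of all genes tested). In blue cones against rods, 13 were higher and 5 lower (11.3% and 4.63% of all genes tested). Otx2, Rora, Rxrg, Mef2c, Sall3 and Sox6 were nearest to a member, with 8 members between them. Otx2, the homeodomain factor of both classes, was called in neither comparison, with 9451, 8743 and 9750 in ON-BC against 12264, 10859 and 11908 in OFF-BC, whereas rods had 6796 to 7638 and blue cones 6538 to 7420. Rxrg, a retinoid receptor gene of cones, had 7.22, 9.80 and 3.08 in ON-BC against 17.9, 9.61 and 150 in OFF-BC, whereas rods had 13.6 to 22.7 and blue cones 4179 to 4430. Its blue cone difference of 7.88 was called and its OFF-BC difference was not (adjusted p = 0.705 by limma), as OFF-BC overlapped ON-BC and replicate 3 alone was high. Sox6, an SRY-box factor, was at 1103, 1153 and 1045 in OFF-BC and 862 to 1088 in ON-BC, and Rora, a nuclear receptor, was at 5400, 5187 and 5733 and at 6319 to 6893, with neither called.

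Genes of cone phototransduction, the cascade from opsin to channel, were next to several members. Of the 19 tested, 9 were higher and 1 lower in OFF-BC than ON-BC (3.6% and 2.95% of all genes tested). In blue cones against rods, 11 were higher and 2 lower (11.3% and 4.63% of all genes tested). Of the 19, 5 were nearest to a member, Opn1sw, Gnat2, Cnga3, Cngb3 and Slc24a2. Opn1sw, the S-opsin gene, had 822, 772 and 447 in ON-BC against 4477, 4314 and 55813 in OFF-BC, whereas rods had 7389, 7590 and 7453 and blue cones 1108420, 1302220 and 1256120. Pan-BC had 50740, 28147 and 42310. OFF-BC replicate 3 was over 10 times the other OFF-BC replicates. The OFF-BC difference was 3.96 (SE 0.64, limma adjusted p = 0.00332), and 2.74 without that library (adjusted p = 0.000104). Gnat2, the cone transducin alpha subunit gene, had 2794, 3446 and 3631 in ON-BC against 16557, 13813 and 21002 in OFF-BC, whereas rods had 878, 967 and 966 and blue cones 143488, 161909 and 184502 (differences 2.37 and 7.44, and 2.21 between OFF-BC and ON-BC without replicate 3). Cngb3, a subunit of the cone cyclic nucleotide-gated channel, had 566, 552 and 605 in ON-BC against 2059, 1765 and 2154 in OFF-BC, whereas rods had 90.2, 126 and 150 and blue cones 25343, 25444 and 25957 (differences 1.79 and 7.73). In all 3 genes OFF-BC lay above ON-BC and far below blue cones. Their members had OFF-BC accessibility of 112 and 106 (Opn1sw), 56.6 and 89.6 (Gnat2, 336 bp upstream) and 39.1 and 27.3 (Cngb3, 726 bp into the gene), against 242 and 221, 249 and 239, and 66.1 and 61.4 in blue cones. Cnga3, the partner channel subunit, had 7.22, 1.96 and 1.03 in ON-BC against 1.12, 7.21 and 64.0 in OFF-BC, so its difference was not called (adjusted p = 1 by limma), although its promoter had accessibility of 45.8 and 51.6 in OFF-BC and 11.9 and 5.86 in ON-BC. Slc24a2, the cone sodium/calcium-potassium exchanger, had 401, 405 and 645 in OFF-BC and 626 to 744 in ON-BC, not called, and 2704 to 3637 in blue cones against 22.3 to 24.6 in rods. Both OFF-BC and cone libraries were open at its member. Cone marker sums were also higher in OFF-BC than ON-BC, and in pan-BC than ON-BC, as given above. Of the 10 cone markers, 8 were higher in OFF-BC than ON-BC and 1, Kcne2, lower (3.6% and 2.95% of all genes tested).

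Genes with a mean count over 16-fold higher in rods or blue cones than in OFF-BC were set aside as a check on carried-over photoreceptor RNA. This filter was adapted from the study, whose example names rods and blue cones, and was applied here after seeing the data. It removed Dusp23 and Opn1sw and left 29 genes higher in OFF-BC and 14 higher in both. Over all genes it removed 23 of the 505 higher in OFF-BC.

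The remaining genes higher in both comparisons included surface and signalling proteins with OFF-BC levels near to or above those of blue cones. Lgr5, an R-spondin receptor gene, had 44.4, 20.6 and 22.6 in ON-BC against 1888, 1629 and 1603 in OFF-BC, whereas rods had 7.76, 29.7 and 19.5 and blue cones 3520, 2774 and 2576 (log2 differences 5.90 and 7.38). A930009A15Rik overlaps Lgr5 on the opposite strand, so reads of the pair cannot be told apart without strand, and it differed by 7.74 and 7.16. Together they were nearest to 3 members, whose highest OFF-BC counts were 67.4, 67.4 and 32.3 and whose ON-BC and rod counts were at most 8.78. Slitrk6, a synaptic adhesion protein gene, had 64.0, 160 and 68.7 in ON-BC against 6435, 7296 and 4665 in OFF-BC, whereas rods had 17.5, 11.3 and 16.2 and blue cones 162, 166 and 176. OFF-BC stood far above ON-BC, rods and blue cones. The difference was 6.07 for OFF-BC minus ON-BC and 3.42 for blue cones minus rods, and the Slitrk6 member lay 742738 bp from the gene start. Cdh13, the gene of a membrane-anchored cadherin, had 0, 2.94 and 7.18 in ON-BC against 27.9, 42.1 and 59.6 in OFF-BC, whereas rods had 0, 0 and 1.08 and blue cones 45.9, 65.3 and 27.4 (a difference of 3.73 between OFF-BC and ON-BC). OFF-BC and blue cones overlapped for Cdh13, and neither overlapped its closed partner. Of its 5 members, 4 lay in introns 205324 to 231573 bp from its start and 1 lay 44297 bp upstream. In the intron region printed above, OFF-BC had 68.7 and 40.9 and blue cones 201 and 194.

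Of the others, Angpt1, a ligand of the TIE2 receptor, differed by 6.87 and 2.83, Rnf180, a ubiquitin ligase gene, by 2.57 and 5.70, Shisa6, an AMPA receptor auxiliary protein gene, by 4.19 and 4.22, Gsg1 by 4.37 and 2.06, and Ackr1, an atypical chemokine receptor gene, by 1.61 and 4.28, in that order. Clnk, an adaptor protein gene, was 2.95 higher in OFF-BC than ON-BC and had 3.76, 10.6 and 15.5 in blue cones and 1.94, 0 and 0 in rods. Atp10b, a phospholipid-transporting ATPase gene, had 0, 0.980 and 3.08 in ON-BC against 20.1, 24.0 and 22.1 in OFF-BC, had 7.52, 4.55 and 5.92 in blue cones and was at 0 in all rod libraries. Atp10b and Clnk were not called in both comparisons with a pseudocount of 8 or with the compared populations fitted alone. Clnk, Gsg1, Ackr1 and Dusp23 lost a call when some single libraries were left out, with the adjusted p by limma reaching 0.0874 for Clnk and 0.22 for Gsg1 in blue cones, and 0.0809 for Ackr1 and 0.0985 for Dusp23 in OFF-BC.

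Of the 31 nearest genes higher in OFF-BC (9.72%, against 3.6% of all genes tested), the other 15 were not called in blue cones. They included Opcml, a neuronal adhesion protein gene, with 464, 386 and 353 in OFF-BC against 0, 3.92 and 1.03 in ON-BC (difference 7.54), Trpm3, a cation channel gene (5.32), Kitl, the KIT ligand gene (4.60), and Htr2a, a serotonin receptor gene with 52.5, 52.9 and 18.8 in OFF-BC, 0, 0 and 3.08 in ON-BC and 0 in every rod and blue cone library. Opposite directions were seen at Slit3, the nearest gene of the member ranked first. Slit3 RNA was 203, 107 and 142 in ON-BC against 2.24, 0 and 2.21 in OFF-BC, whereas rods had 0, 2.05 and 0 and blue cones 90.3, 65.3 and 99.2. The OFF-BC libraries were near 0 although the intronic region had counts of 174 and 121 there, and the region was closed in ON-BC where the RNA was present. Ccnjl, Rassf3, Sel1l3, Adgrl2, Amigo2, Edil3 and Galnt17 shared this direction. Amigo2, a leucine-rich repeat adhesion protein gene, had 3631, 3321 and 3232 in ON-BC against 484, 382 and 524 in OFF-BC, whereas rods had 2.91, 7.17 and 1.08 and blue cones 38.4, 35.7 and 49.6.

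Higher RNA in blue cones without an OFF-BC call was the common case. Eya1 had 2848, 2722 and 2417 in blue cones and 9.70, 14.3 and 18.4 in rods (difference 7.50), but 4.47, 4.81 and 22.1 in OFF-BC and 22.7, 33.3 and 32.8 in ON-BC, where the difference of −1.74 was not called (adjusted p = 0.549 by limma). The Eya1 intron was nevertheless as open in OFF-BC as in green cones. Zfp608, a zinc finger gene with 6 members, had 555, 446 and 474 in blue cones and 0.970, 5.12 and 14.0 in rods (difference 6.44), and 621, 727 and 683 in OFF-BC against 1423, 1650 and 1424 in ON-BC. OFF-BC lay below ON-BC at a difference of −1.14 that was not shown to exceed 1 in size (adjusted p = 1 by limma). Across its 6 members the ATAC-seq counts ran from 25.3 to 106 in OFF-BC, 27.2 to 204 in blue cones and 0 to 6.23 in rods. Rab27b, a small GTPase gene of vesicle release, differed by 6.49 in blue cones and 1.32 in OFF-BC, the latter not called. The 7 nearest genes lower in blue cones than rods were Acoxl, Bcl2l11, Crispld2, Mbnl1, Mef2c, Taf4b and Tapt1, with differences from −1.46 for Tapt1 to −4.47 for Mef2c.

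Of the synaptic lists, none of the 21 tested ribbon synapse genes was called between OFF-BC and ON-BC (3.6% of all genes tested were higher and 2.95% lower). In blue cones against rods, 2 were higher and 0 lower (11.3% and 4.63% of all genes tested). Rimbp2, a presynaptic binding protein gene, was nearest to 2 members. The glutamate receptor list held 15 tested genes of ionotropic receptors, their auxiliary subunits and Grm6, the ON bipolar receptor gene. In OFF-BC 6 were higher and 1, Grm6, lower than in ON-BC (3.6% and 2.95% of all genes tested). In blue cones 1 was higher and 1 lower than in rods (11.3% and 4.63%), and no member had a gene of this list as its nearest. The marker lists of rods, ON bipolar, Muller glia, amacrine, horizontal and ganglion cells had 0 genes nearest to a member, the OFF bipolar list had Sox6 with 2 members and the cone list had Opn1sw, Gnat2, Cnga3 and Cngb3 with 1 each.

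In sequence, the members resembled cone regions in homeodomain letters. In the CAGATG form of the E-box they lay between cone-only and OFF-BC-only regions, of which only the former excluded pan-BC peaks. The K50 letters TAATCC, searched like all motifs on both strands of the 201 bp, was found in 35.5% of members, 36.2% of regions open in OFF-BC, both cone types and rods, 40% of cone-only regions, 15.5% of OFF-BC-only regions and 21.8% of all regions. TAATTA was found in 12.6% of members, against 7.87%, 14.4%, 7.60% and 5.22% in the same order, and TAATTG in 16.3%, against 9.23%, 13.4%, 8.79% and 6.91%. A dimer of TAAT and ATTA with 3 bases between, which may contain other homeodomain letters, was found in 3.41%, against 1.91%, 3.82%, 0.299% and 0.982%. TAATCC together with TAATTA or TAATTG was found in 66 members (10.2%), against 6.12%, 10.4%, 2.63% and 3.26%, and 314 members (48.7%) held none of the 3. Promoters are rarer among members, and outside promoters TAATCC was found in 36.1% of members and 24.6% of all regions. A match is a description of these letters and not of a bound factor.

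The E-box CAGATG was found in 25.3% of members, against 17.4%, 19.7%, 34.0% and 22.4% in that order. Members with 0, 1 and 2 pan-BC peaks held it in 20.6%, 29.6% and 26.4%. Those with 0, the condition set for cone-only regions, were thus near the cone-only share. CAGCTG was found in 21.9%, against 18.1% of all regions, and CATATG in 4.19%, against 3.50%. CANNTG, of which these are forms, was found in 71.9%, against 66.3%, 73.9%, 77.2% and 68.9% in the order above. Outside promoters, CAGATG was found in 26.0% of members and 25.0% of all regions, and CANNTG in 72.6% of each. CAGCTG was found there in 21.9% and 19.1%. The nuclear receptor core AGGTCA was found in 16.1%, against 21.4%, 24.3%, 16.4% and 15.7%, so members were near the OFF-BC-only value and below the cone sets. TGCTGA, a core of NRL sites, was found in 20.3% (17.9% of all regions), TTGGCA, a core of NFI sites, in 12.2% (10.6%), GTTGCC, a core of RFX sites, in 7.13% (7.55%), a MEF2 site of CTA and TAG with 4 A or T between in 1.55% (1.16%) and a CTCF consensus in 0.62% (5.10%).

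TAATCC was most frequent near the midpoints, in the members as in the other sets. In the bin of 20 bp before the midpoint there were 8.06 TAATCC matches per 100 members, against 9.38 per 100 regions open in OFF-BC, both cone types and rods, 9.77 per 100 cone-only regions, 2.99 per 100 OFF-BC-only regions and 4.61 per 100 over all regions. TAATTG in members had 2.02 per 100 in that bin, 2.17 in the bin from 80 to 60 bp before the midpoint and 0.775 and 0.930 in the outermost bins. TAATTA had 2.79 in the bin before the midpoint and 0.620 in each outermost bin. These rates rest on few matches per bin. Of the members, 27.3% held TAATCC within the central 100 bp, against 16.3% of all regions. TAATCC was about as frequent at each level of accessibility. By tertile of the lowest open population mean, from low to high, 36.3%, 37.2% and 33.0% of members held it. Members with and without TAATCC had a median OFF-BC minus cone difference of −0.56 and −0.50 on the log2 scale and median OFF-BC counts of 41.8 and 42.5. Members with 0, 1 and 2 pan-BC peaks held TAATCC in 40.1%, 30.9% and 35.0%. Of the 25 promoter members 20% held TAATCC and 8.00% held CAGATG, with a median GC content of 55.7%.

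**Figure D5:**
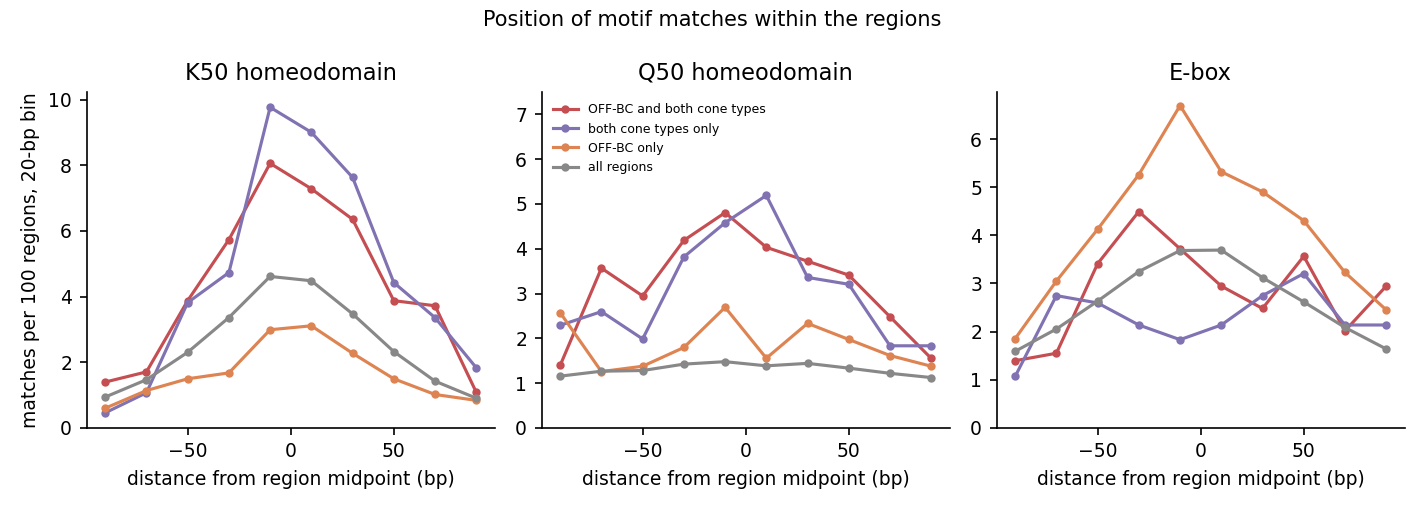
Matches per 100 regions in 20-bp bins by distance from the region midpoint (bp), for TAATCC, for TAATTA or TAATTG (Q50) and for the E-box CAGATG, in the members, regions open in both cone types only, regions open in OFF-BC only and all regions (lines). TAATCC in members peaks in the bin before the midpoint at 8.06 per 100, against 9.77 in cone-only regions and 4.61 over all regions.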

How the data were processed

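ATAC-seq and RNA-seq reads were aligned to GRCm38 (mm10) by the authors with Bowtie2 and STAR. Per the study's methods and processing notes, duplicates were removed with Picard, ATAC-seq fragments over 150 bp were removed, peaks were called per library with MACS2 without pooling replicates, and reads were counted over merged 200-bp regions or RefSeq genes. A shift of reads for the transposase cut is not given in the sources used here. The deposited tables hold a signal, reads divided by 1 size factor per library, and all 1212862 ATAC-seq and 230384 RNA-seq values above 0 were whole reads within 0.01 read. The deposited peak files give the fold enrichment of each peak and its −log10 q value, as MACS2 wrote them. Depth was 4176776 to 12345845 counted reads per ATAC-seq library and 12329548 to 26266746 per RNA-seq library, which sets the counting error of low values.

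Since the tables turned out to hold normalized values, the main test was limma 3.58.1 in R 4.3.3 (treat, log2 change beyond 1, trended prior, Benjamini-Hochberg 0.05 over all features) on log2(value + 1), with filterByExpr on recovered reads and 1 level per population over all libraries of an assay. Fold changes of low genes are understated on this scale. edgeR 4.0.16 and DESeq2 1.42.0 on recovered reads, TMM scaling, pseudocounts of 0.5 and 8, no filter, the compared populations alone, a replicate block, other overlap and distance rules and leaving out each library were alternatives. The 16-fold carry-over rule was added after seeing the data. Scripts were tested on simulated data. Replicates differed beyond sampling noise (chi-square per feature 2.33 to 4.30 for ATAC-seq and 6.83 to 66.1 for RNA-seq), so each counted as 1 sample.

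The members, gene lists and marker lists were chosen with earlier results of these data known. Each region took the gene whose transcript start was closest, among the starts of 45756 RefSeq transcripts, and sequence came from the GRCm38.p6 assembly. Named were the 12 members with the highest lowest-population mean, those beside genes called alike in both RNA comparisons (15 at most), those beside listed genes (15 at most), the 3 extreme called members in each direction of each ATAC-seq contrast and the 2 genes with most members. Mentions of nearest genes beyond these, such as Opcml or Amigo2, were chosen after their values were seen.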

Additional observations from a re-analysis of the deposited data

How the results depend on the processing

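Peak calls in single libraries set the number of members. With open and closed judged on 1 replicate only, it was 1255 without replicate 1 and 1663 without replicate 2, against 645. With any overlap in place of the midpoint it was 641, of which 620 were shared with the members, and with peaks of −log10 q of at least 5 it was 603, of which 488 were shared.

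Of the counts of members and genes under the alternatives, 120 lay within 1.5 times the main count and 21 did not. The cause was not tested unless the alternative removes members or samples by construction. Among members within 50 kb of the start site, 12 nearest genes were lower in OFF-BC than ON-BC and 86 were higher in blue cones than rods, since fewer genes remain. edgeR gave 26 genes higher in both comparisons, including all 16 named, and DESeq2 kept 15 of them. Of the 16, 14 kept both calls with a pseudocount of 8 (without Atp10b and Clnk) and 12 with the compared populations fitted alone (without Atp10b, Clnk, Dusp23 and Gsg1). edgeR also gave 2 members more and 83 less accessible in OFF-BC than cones, and 3 and 3 between blue and green cones. With the compared populations fitted alone, 44 members were less accessible in OFF-BC and 3 and 3 differed between blue and green cones. Motif shares within the central 100 bp were lower, as a shorter window requires, at 27.3% for TAATCC and 15.8% for CAGATG.

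Leaving out single libraries gave 25 to 33 genes higher and 16 to 23 lower in OFF-BC than ON-BC, 123 to 131 higher and 7 to 7 lower in blue cones than rods, and 13 to 18 higher in both. It gave 0 to 1 members more and 5 to 12 less accessible in OFF-BC than cones.

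Samples with the same replicate number correlated between OFF-BC and ON-BC RNA at −0.08, 0.22 and −0.06 and between blue cones and rods at 0.08, 0.03 and 0.04. Same-numbered OFF-BC and ON-BC libraries share an age in the labels, but no shared animal, litter or day is named, so the numbers were not taken to pair samples. With the replicate block, 37 nearest genes were higher and 22 lower in OFF-BC, 122 were higher in blue cones and 17 were higher in both, among them 13 of the 16 named genes (without Atp10b, Clnk and Dusp23), while 47 members were less accessible in OFF-BC than cones and 4 and 4 differed between blue and green cones. Blocks in ATAC-seq leave few residual degrees of freedom, and depth limits calls at regions of few reads.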
